A study of Rattus norvegicus with 43 samples.

Results

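The enzymes that process foreign compounds were followed in the colonic mucosa of azoxymethane-treated rats through every probe whose platform gene symbol belongs to the cytochrome P450 families 1 to 4 (Cyp1 to Cyp4), the flavin monooxygenases (Fmo), aldehyde dehydrogenases (Aldh), aldo-keto reductases (Akr), carboxylesterases (Ces), epoxide hydrolases (Ephx), quinone reductase (Nqo), glutathione transferases (Gst), sulfotransferases (Sult) or UDP-glucuronosyltransferases (Ugt). Only probes with a single symbol were used. The arrays carry 63 such genes on 68 probes, among 5628 named genes and 8452 probes in all, and 5 of the 63 have several probes. Phase 1 families hold 44 of the genes and phase 2 families (Gst, Sult and Ugt) hold 19. The choice rests on symbols alone, so it also takes in relatives with roles in ordinary metabolism, such as the proline synthesis enzyme Aldh18a1.

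Phase 1 enzymes oxidise, reduce or hydrolyse drugs, dietary compounds, steroids and fatty acids, often to reactive products, and phase 2 enzymes join glutathione, sulfate or glucuronic acid to them for export. In the gut epithelium these enzymes meet compounds from food and from bacteria, and many of their genes answer to the dioxin receptor (Ahr), the pregnane X receptor (Nr1i2) and the antioxidant factor Nrf2 (Nfe2l2). Azoxymethane itself is oxidised in several steps to a DNA-methylating agent, mainly by Cyp2e1 of the liver.

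All animals were male Sprague Dawley rats, labelled weanling, that received azoxymethane at 15 mg/kg body weight while eating a diet whose fat was corn, fish or olive oil. Mucosa was taken 12 h later, or, by each sample's label, at 10 wk, whereas the treatment protocol gives the late rats another injection and counts 9 wk from it. Age, number of injections and time on the diet therefore differ together between the time points and cannot be told apart, and no untreated rats were included. There were 5 rats in each of the 6 groups except fish oil at 10 wk, with 4, which gives 15 early and 14 late rats.

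RNA was hybridised to 43 1-colour arrays, and the 14 repeat arrays of 10 rats were averaged within the rat. Levels are log2 of quantile-normalized intensity with a floor at 6.46, and levels of different probes are not comparable. The arrays fall into 3 scan classes by the size of the spots and of the background ring measured around them, a split that the labels do not name. Class and time overlap strongly: large-ring arrays came from 12 late and 3 early rats, small-ring arrays from 2 late and 11 early rats, and large-spot arrays from 2 late and 4 early rats. Repeat arrays did not always lie close to their own rat. Of the 24 arrays of the 10 rats with repeats, 12 correlated best, over all tested probes, with an array of another rat, and 10 of these 12 with one of the same scan class. The 12 came from 7 rats (103, 104, 202, 206, 136, 236 and 334), and arrays of 1 rat correlated with each other at 0.934 to 0.999. The last array of rat 236, labelled fish oil, lay nearest to a large-ring array of corn oil rat 136 (0.985, against at most 0.966 with its own rat). Whether these labels hold was not tested, and the main results are also given without the 7 rats. Each time difference was also fitted with class as a block, on all arrays with the rat as a random effect, and taken within each class. Values within a class are plain differences of means that leave diet out. The early large-ring rats were corn oil rats 102 and 103 and fish oil rat 206. On the large-ring arrays of rats 102 and 103 only 85.9% and 84.8% of spots lay above noise. The early large-spot rats were fish oil rat 202 and olive oil rats 301, 302 and 305.

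Of the 63 genes, 49 were bright enough to test. The 14 others were Aldh1a2, Aldh1l2, Aldh3a1, Aldh5a1, Akr1d1, Cyp1a1, Cyp2c6v1, Cyp2c7, Cyp2c22, Cyp2e1, Fmo1, Fmo2, Gsta1 and Gstt1. Cyp2e1 lay at the floor in all 29 rats, as did Aldh1l2, and Akr1d1 exceeded it in 1 rat and Aldh1a2 in 2 rats. Aldh5a1, Cyp1a1 and Gstt1 lay above the floor in every rat but under the brightness filter. Cyp1a1, the main dioxin receptor target, ranged from 6.62 to 8.14 at 12 h and from 6.77 to 7.52 at 10 wk. A level at the floor bounds the signal of that probe on these arrays and does not show that the RNA is missing.

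Between 12 h and 10 wk, 3 of 5 sulfotransferase genes, 2 of 4 glucuronosyltransferase genes, 2 of 3 Cyp3a genes and both mu-class glutathione transferase genes were lower, and a carboxylesterase, a sulfotransferase and a pair of amino acid metabolism enzymes of the aldehyde dehydrogenase family were higher. With limma over all tested probes, 24 of the 49 genes passed at an adjusted p under 0.05, 15 lower and 9 higher at 10 wk. The 9 include the sulfotransferase gene Sult1c2, which entered the tests only through late rats, where it is high. Among all 4431 named genes tested, 34.7% passed, 18.1% lower and 16.6% higher. The median log2 difference was -0.07 over the 49 genes and -0.01 over all named genes. Phase 2 held 8 lower and 3 higher genes among 17 tested, with a median of -0.15, and phase 1 held 7 lower and 6 higher among 32, with a median of -0.03. The differences were small: 20 of the 24 were under 1.5-fold.

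**Figure D1:**
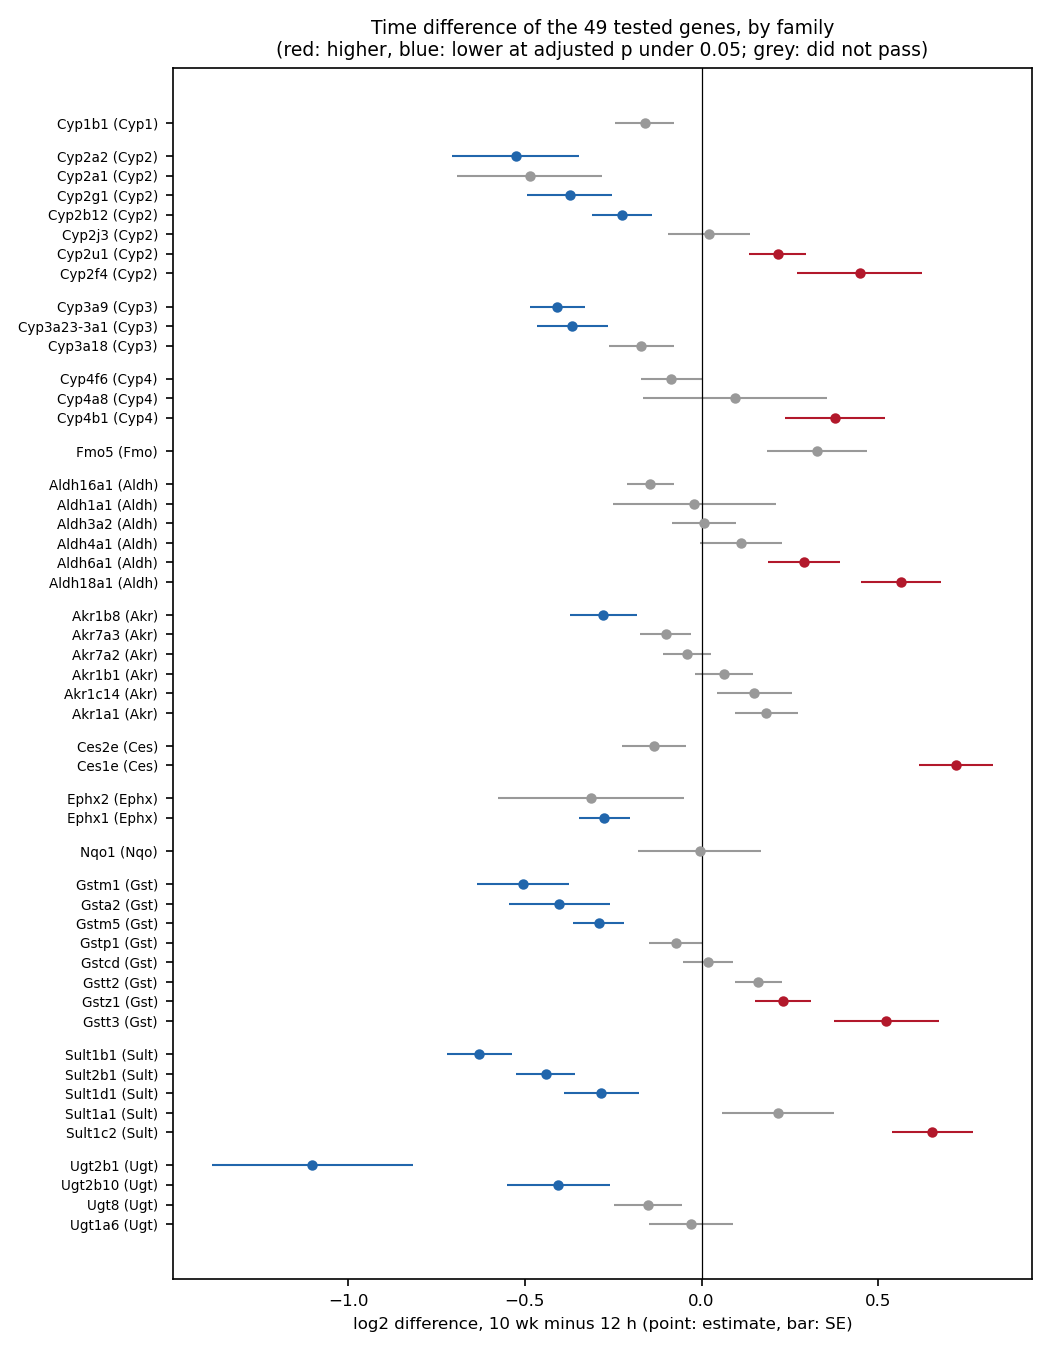
The log2 difference of each of the 49 tested genes between 10 wk and 12 h, averaged over diets, grouped by family, with the SE as a bar. The 15 blue genes were lower and the 9 red genes higher at adjusted p under 0.05, and Ugt2b1 lies farthest to the left at -1.10 and Ces1e farthest to the right at 0.72.

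Among the sulfotransferases, which attach sulfate, 3 of 5 genes were lower and 1 was higher. Sult1b1, which sulfates phenols and thyroid hormones, ranged from 7.84 to 9.05 with a median of 8.25 at 12 h, and from 7.38 to 8.38 with a median of 7.69 at 10 wk. The groups overlapped, but 9 of the 14 late rats lay below every early rat. Sult1b1 fell by 0.63 on the log2 scale (SE 0.09), 1.55-fold, with an adjusted p of 1.1e-05 in limma. Sult2b1, which sulfates cholesterol, went from a median of 10.81 (10.53 to 11.43) to 10.40 (10.06 to 10.86). All 14 late rats lay below the early mean, and the gene fell by 0.44 (SE 0.08, adjusted p = 0.000232). Sult1d1, a rodent enzyme for catechols, gave -0.28 (SE 0.11, adjusted p = 0.0376), with 8 late rats below all early rats and 1 late rat above them. Its other probe lay at the floor in every rat and was not tested.

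Sult1c2, a relative that sulfates phenols, went the other way. Its early levels ran from the floor to 7.34 with a median of 6.90, and its late levels from 6.64 to 8.17 with a median of 7.61. Of the late rats 11 lay above every early rat, and Sult1c2 was higher by 0.65 (SE 0.12, 1.57-fold, adjusted p = 0.000107). No early rat exceeded the brightness filter for Sult1c2, so it entered the tests only through late rats, where it is high. Its p-value is therefore not independent of that filter. Sult1a1, the main phenol sulfotransferase, gave 0.22 (SE 0.16, adjusted p = 0.296) and lay at the floor in 4 rats. Sult1b1 and Sult1c2 had the same sign within all 3 scan classes. The values were -0.68, -0.48 and -0.56 for Sult1b1 and 0.77, 0.99 and 0.54 for Sult1c2, in the order large spots, small ring and large ring.

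All 4 glucuronosyltransferase genes had negative differences and 2 passed. Ugt2b1, a rat enzyme for steroids and phenols, showed the widest spread of the 49 genes, with a residual SD of 0.82. Its early levels ran from 8.91 to 12.18 (median 11.76) and its late levels from 8.53 to 11.22 (median 10.59). The time groups overlapped: early fish oil rats 201 and 202 at 8.91 and 10.82 and early olive oil rats 302 and 301 at 10.04 and 10.94 lay within the late range, while all 14 late rats lay under the early mean. Ugt2b1 fell by 1.10 (SE 0.28, 2.15-fold, adjusted p = 0.00375). In the 5 corn oil rats at 12 h it stood at 12.18, 12.00, 11.76, 12.18 and 12.16, and at 10 wk at 11.22, 10.85, 11.09, 10.69 and 9.07. These corn oil groups did not overlap, with a difference of -1.47 (adjusted p = 0.0829). Its neighbour Ugt2b10 gave -0.41 (SE 0.15, adjusted p = 0.0331) with 9 late rats below all early rats, but its spot is missing in 4 early rats, which the fit leaves out, and it missed the threshold once class was blocked (-0.44, adjusted p = 0.0835). Ugt1a6, which glucuronidates planar phenols, stood at -0.03 (adjusted p = 0.867), and the lipid galactosyltransferase gene Ugt8 at -0.15 (adjusted p = 0.227).

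Of the 8 tested glutathione transferase genes, 3 were lower and 2 higher. The mu-class genes Gstm1 and Gstm5 and the alpha-class gene Gsta2 were lower, and the theta-class gene Gstt3 and the zeta-class gene Gstz1, which also breaks down tyrosine products, were higher. Gstm1 went from a median of 9.86 (9.37 to 10.71) to 9.43 (8.89 to 9.92), and none of the 14 late rats reached the early mean. Its difference was -0.51 (SE 0.13, 1.42-fold, adjusted p = 0.00375). Gstm5 went from 10.33 (10.11 to 10.68) to 10.01 (9.84 to 10.48), with 9 late rats below all early rats, and fell by 0.29 (SE 0.07, adjusted p = 0.0025). Gsta2 overlapped more, with 1 late rat above all early rats, and fell by 0.40 (SE 0.14, adjusted p = 0.0281). Once class was blocked it stood at -0.14 (adjusted p = 0.609, no longer passing), and with 1 class per rat the sign turned (0.08). Gstt3 went from 9.33 (8.61 to 9.94) to 10.01 (9.22 to 10.51), with 8 late rats above all early rats, and rose by 0.52 (SE 0.15, adjusted p = 0.00748). Gstz1 was higher by 0.23 (adjusted p = 0.0251). Gstp1, the pi-class enzyme raised in many tumours, differed by -0.07 (SE 0.08, adjusted p = 0.494), with levels from 13.61 to 14.40 early and 13.71 to 14.41 late. Gstt2 (0.16, adjusted p = 0.0602) and Gstcd (0.02, adjusted p = 0.857) did not pass.

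Among the P450 genes, both called members of family 3 were lower. Cyp3a9, a steroid and drug hydroxylase, went from a median of 13.06 (12.74 to 13.38) to 12.71 (12.22 to 12.93), with 7 late rats below every early rat and all 14 below the early mean. It fell by 0.41 (SE 0.08, 1.33-fold, adjusted p = 0.000227), and its values within the classes were -0.42, -0.22 and -0.45 in the order given above. Cyp3a23-3a1 fell by 0.37 (SE 0.10, adjusted p = 0.00562). Within small-ring arrays, however, it stood at 0.17. Cyp3a18 gave -0.17 (adjusted p = 0.147).

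In family 2 the genes Cyp2a2, Cyp2g1 and Cyp2b12 were lower and Cyp2f4 and Cyp2u1 higher, of 7 tested. Cyp2a2, a testosterone hydroxylase of rat liver, fell by 0.53 (SE 0.18, adjusted p = 0.024) and Cyp2g1, known from the olfactory mucosa, by 0.37 (SE 0.12, adjusted p = 0.0165). The calls of both were lost with scan class as a block (-0.10 and -0.09). Cyp2a1, a close paralog of Cyp2a2, gave -0.49 (adjusted p = 0.0624). The probes of these paralogs ran together: the lowest early rat of both was the same corn oil rat, at 6.90 for Cyp2a1 and 6.60 for Cyp2a2, and the lowest late rat of both was the same olive oil rat, at 7.01 and 6.51. The only array of that corn oil rat, 102, had 85.9% of spots above noise. The only array of that olive oil rat, 335, had 93.0%. The part of array quality was not tested, nor was whether the probes tell the paralogs apart. Cyp2b12 (-0.23, adjusted p = 0.0396), Cyp2f4 (0.45, adjusted p = 0.048) and the fatty acid hydroxylase gene Cyp2u1 (0.22, adjusted p = 0.0405) lay near the threshold. The other probes of Cyp2a2 and Cyp2b12 reached at most 7.16 and 7.07 in any rat and were not tested. Cyp4b1, which oxidises fatty acids and some protoxins, was higher by 0.38 (SE 0.14, adjusted p = 0.0366), while Cyp4f6 and Cyp4a8 did not pass (-0.09 and 0.09), the latter at the floor in 18 rats, nor did the arachidonic acid epoxygenase gene Cyp2j3 of family 2 (0.02). Cyp1b1, which oxidises aromatic hydrocarbons and oestrogens, gave -0.16 (adjusted p = 0.129), and leaving out 1 olive oil rat took it past the threshold (adjusted p = 0.0426).

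Among the 49 genes Ces1e rose most. It encodes a carboxylesterase that cleaves esters of drugs and lipids. Its early levels ran from 8.50 to 9.62 with a median of 8.91, and its late levels from 9.25 to 10.15 with a median of 9.70. All 14 late rats lay above the early mean and 8 of them above every early rat. Ces1e rose by 0.72 (SE 0.10, 1.65-fold, adjusted p = 1.06e-05), with 0.72, 0.76 and 0.69 within the classes. The related Ces2e gave -0.13 (adjusted p = 0.256). In the aldehyde dehydrogenase family Aldh18a1, which makes a proline precursor, went from 10.11 (9.11 to 10.58) to 10.67 (10.17 to 11.28) and rose by 0.57 (SE 0.11, adjusted p = 0.000391). Aldh6a1, of valine breakdown, rose by 0.29 (SE 0.10, adjusted p = 0.0275), and the retinal oxidiser Aldh1a1 stood at -0.02 (SE 0.23, adjusted p = 0.954). The fatty aldehyde oxidiser Aldh3a2 (0.01), the proline breakdown enzyme Aldh4a1 (0.11) and Aldh16a1 (-0.15) did not pass either.

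Ephx1, the microsomal hydrolase that opens epoxides made by P450 enzymes, was lower on both of its probes. The brighter went from a median of 11.05 (10.66 to 11.37) to 10.74 (10.55 to 11.09), with 5 late rats below all early rats, and fell by 0.28 (SE 0.07, adjusted p = 0.00412). The other fell by 0.44 (SE 0.09, adjusted p = 0.000312). Akr1b8, a reductase of lipid aldehydes, fell by 0.28 (SE 0.09, adjusted p = 0.0232), and with the scan class block it stood at -0.23 (adjusted p = 0.182). Nqo1, the quinone reductase and a standard Nrf2 target, stood at -0.01 (SE 0.17, adjusted p = 0.984). The aflatoxin aldehyde reductase genes Akr7a2 and Akr7a3 gave -0.04 and -0.10 (adjusted p = 0.672 and 0.282), the aldehyde reductase gene Akr1a1 gave 0.18 (adjusted p = 0.108), and Fmo5, the only tested flavin monooxygenase, gave 0.33 (adjusted p = 0.0701). Leaving out rat 203, 206 or 306 in turn took Fmo5 past the threshold in limma, with a lowest adjusted p of 0.027.

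**Figure D2:**
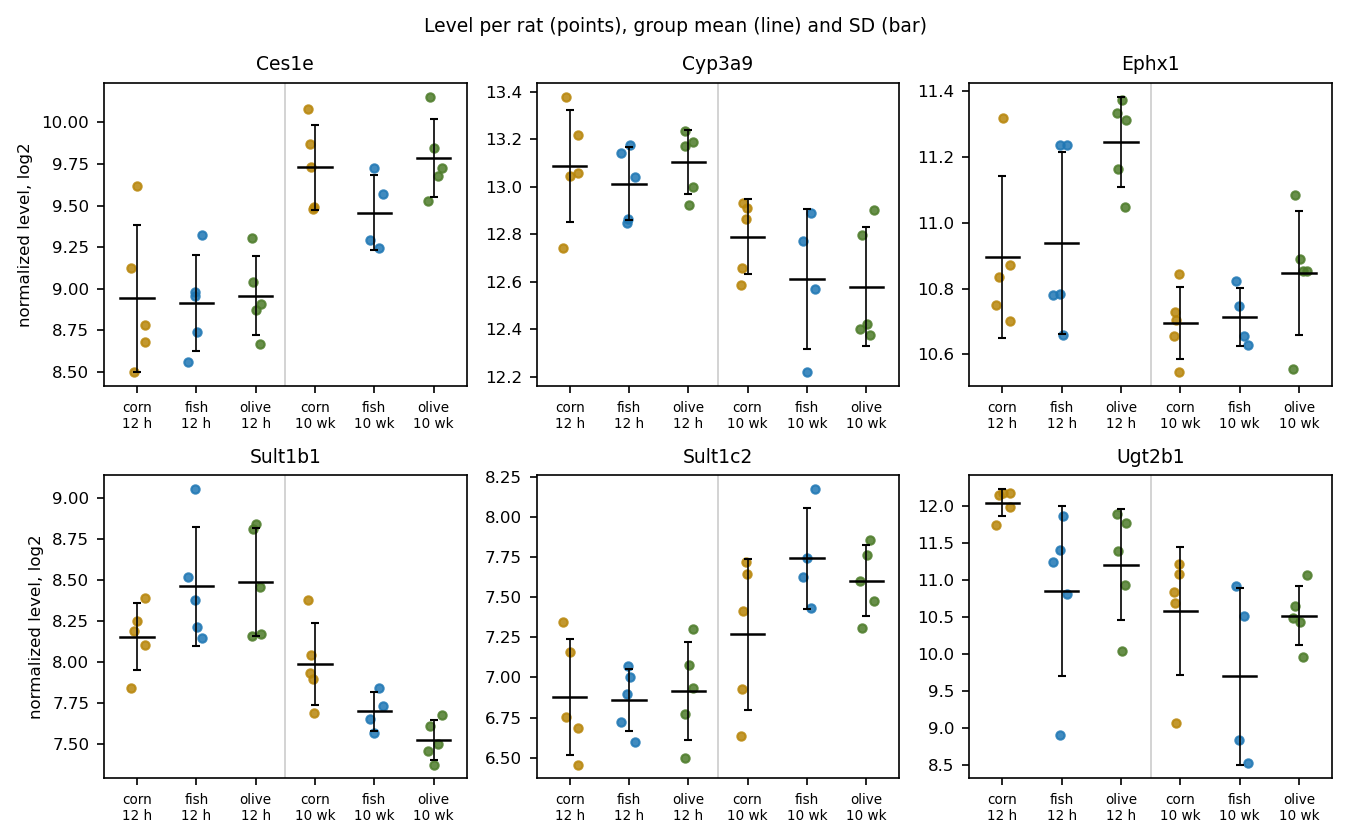
Normalized log2 level in each rat for 6 of the genes that passed, by diet and time (points, rats; lines, group means; bars, SD). Late rats were high for Ces1e and Sult1c2 and low for Cyp3a9, Ephx1, Sult1b1 and Ugt2b1, with some overlap of the time groups in each panel.

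With scan class as a block, 11 of the 24 genes kept their call, 7 lower (Sult1b1, Sult2b1, Cyp3a9, Gstm1, Gstm5, Ephx1 and Ugt2b1) and 4 higher (Ces1e, Sult1c2, Gstt3 and Aldh18a1), and 24 of 24 kept their sign. Sult1c2 is counted here although it entered the tests only through late rats, so its call is not independent of the brightness filter. The share of all named genes that passed dropped to 19.8%. Within small-ring arrays the late rats were only 136 and 236. The array of rat 236 there is the one nearest to an array of rat 136, and whether its label is right is not settled. The values of the 24 genes had the sign of the whole comparison for 23 within large-ring arrays, for 21 within small-ring arrays and for 18 within large-spot arrays. The 24 genes were chosen by their time difference on these same arrays, so shared signs are partly built in. The matching share over all called named genes was not computed. The exceptions were Cyp2a2 within large ring; Cyp2b12, Cyp3a23-3a1 and Sult1d1 within small ring; and Cyp2a2, Cyp2f4, Cyp2g1, Cyp2u1, Gsta2 and Sult1d1 within large spots. In a stricter form with 1 class per rat, 9 calls were kept, against 13.3% of all named genes passing, and Gsta2, Sult1d1, Cyp2g1 and Cyp2a2 changed sign. Without the 7 rats that have an array nearest to another rat, 10 of the 24 genes kept their call (8 lower, 2 higher), 12 lost it with their sign kept, Ugt2b1 (-0.84, adjusted p = 0.0632) and Gstt3 (0.35, adjusted p = 0.151) among them, and Sult1c2 and Ugt2b10 were not bright enough to test. The share of all named genes was then 20.7%.

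**Figure D3:**
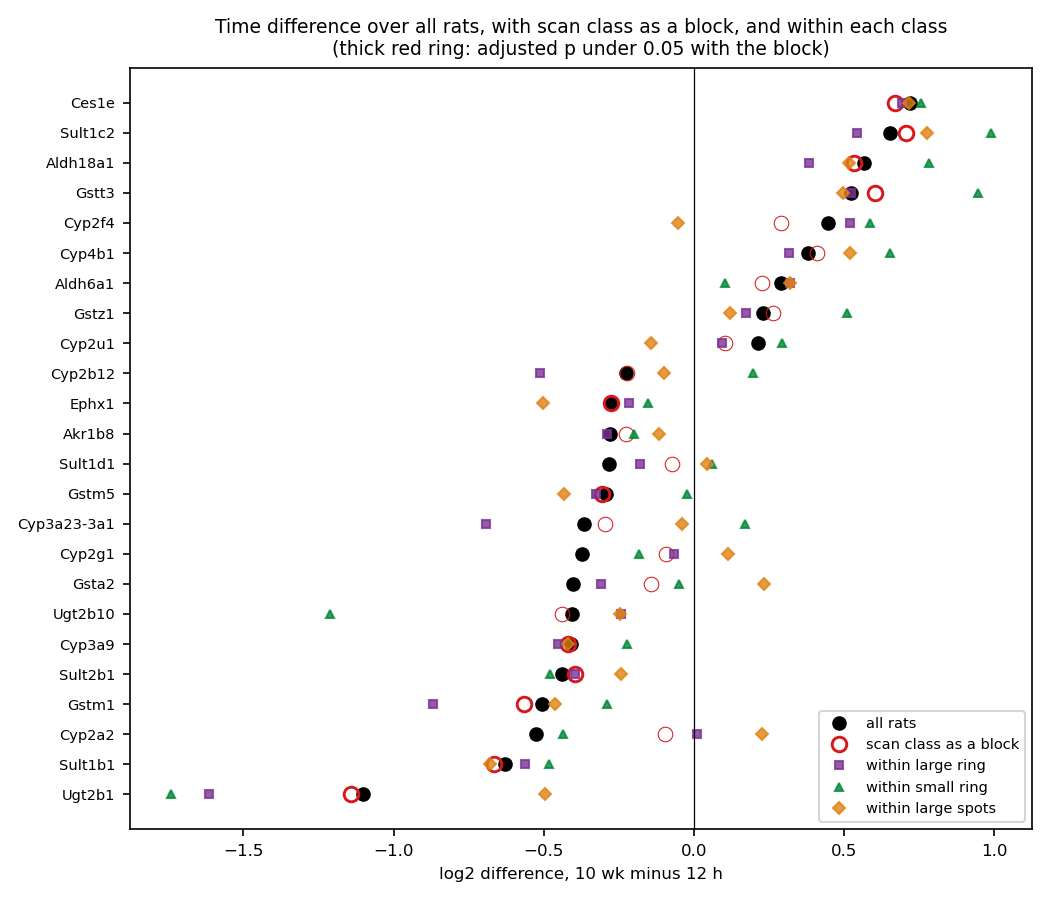
The log2 difference between 10 wk and 12 h of the 24 genes that passed, over all rats (black), with scan class as a block (red rings, thick where adjusted p is under 0.05) and within each of the 3 scan classes. The 11 thick rings lie close to the black points, and values for Gsta2, Cyp2a2 and Cyp3a23-3a1 spread across 0.

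Some markers of cell types also differed with time, and bulk mucosa cannot tell fewer cells of a type from less RNA per cell. Of all named genes 16.6% were higher and 18.1% lower at 10 wk, so counts from short marker lists say little. Of 5 tested markers of crypt proliferation 4 were higher at 10 wk (summed level 2518 to 5380 early and 3587 to 6183 late), while Pcna gave -0.19 (adjusted p = 0.0837). Of 4 smooth muscle markers 3 were higher (663 to 1555 and 882 to 2116). Each summed level adds all tested markers of a list. It therefore follows the brightest probe and is not the level of the markers that passed. Of 5 colonocyte markers 2 were lower (41862 to 59960 and 37077 to 53494), as were 1 of 2 T and NK cell markers (338 to 830 and 300 to 474) and 1 of 2 macrophage markers (450 to 1440 and 465 to 1277). The macrophage marker that passed was Itgam (-0.28), while the brighter Lyz2 did not pass (-0.36, adjusted p = 0.172). Apoa1, a hepatocyte marker that intestinal epithelium also makes, fell by 0.77. Colonocyte and goblet markers such as Car2, Vil1, Tff3 and Zg16 were bright in the samples, with early means of 14.02, 13.39, 14.49 and 14.92. Of 2 enteroendocrine markers 1 was higher, the 1 fibroblast marker tested was lower, and none of 2 goblet, 1 plasma cell, 2 endothelial, 2 adipocyte and 1 neural marker passed. The glial marker Sox10 lay at the floor in all 29 rats, and no mast cell marker was bright enough to test. The part of these cell types in the enzyme differences was not tested.

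By diet, the time difference passed in 1 gene in corn oil rats, 8 in fish oil rats and 8 in olive oil rats, against 2.53%, 10.6% and 12.3% of all named genes. In corn oil rats 1 was higher and none lower (1.11% and 1.42% of named genes), in fish oil rats 3 were higher and 5 lower (4.65% and 5.96%), and in olive oil rats 4 were higher and 4 lower (6.41% and 5.89%). Ces1e was called in corn oil (0.79, SE 0.18, adjusted p = 0.0171) and olive oil rats (0.83, SE 0.18, adjusted p = 0.00364) and gave 0.54 in fish oil rats (adjusted p = 0.0571). In fish oil rats Sult1c2, Cyp2u1 and Gstt2 were higher and Sult1b1, Gsta2, Cyp2a2, Gstm1 and Cyp2g1 lower. In olive oil rats Ces1e, Aldh18a1, Gstt3 and Sult1c2 were higher and Sult1b1, Sult2b1, Cyp3a9 and Ephx1 lower. Sult1b1 gave -0.17 (SE 0.16) in corn oil, -0.76 (SE 0.17) in fish oil and -0.96 (SE 0.16) in olive oil rats.

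All 24 genes had the same sign in the 3 diets, as did 97.0% of all 1538 named genes called. The diet by time interaction in limma passed for none of the 49 genes, with 2 at an unadjusted p under 0.05 and a lowest adjusted p of 0.938, so a difference between diets in the time response was not shown for any of them.

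**Figure D4:**
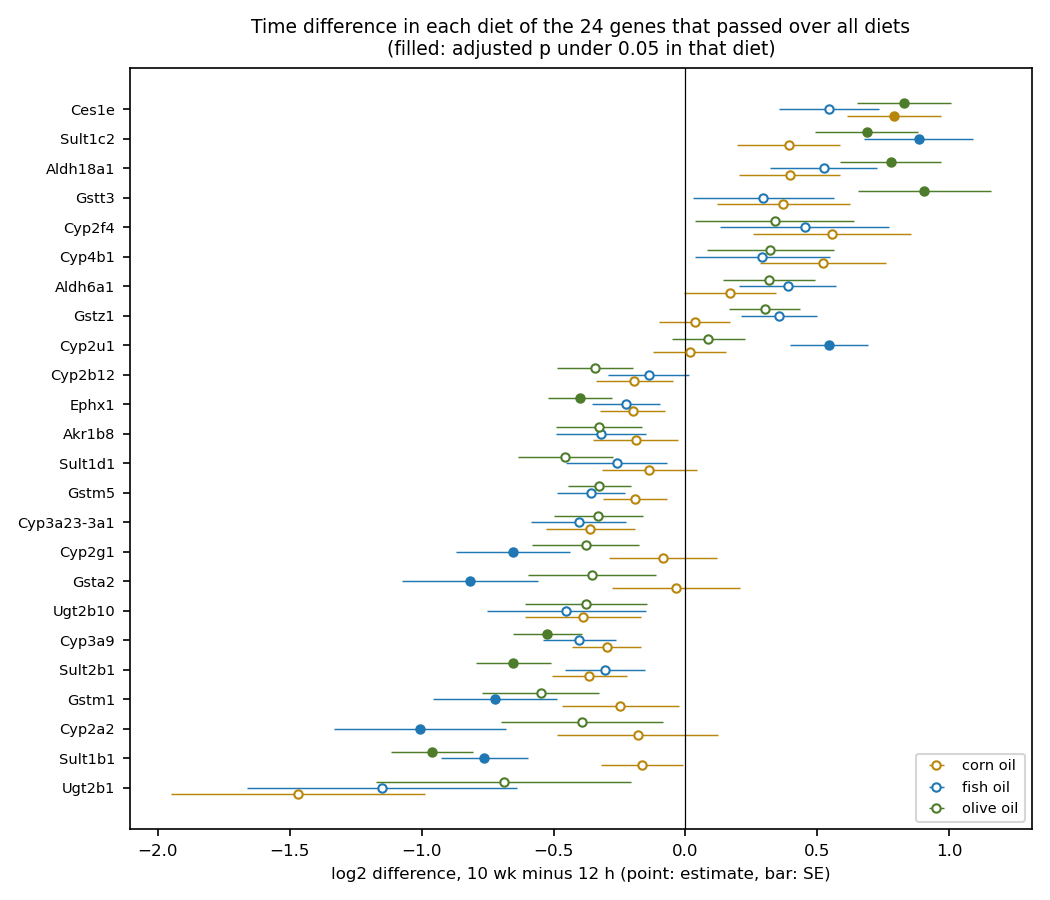
The log2 difference between 10 wk and 12 h in corn, fish and olive oil rats for the 24 genes that passed over all diets, with the SE as a bar. Filled points passed at adjusted p under 0.05 within the diet, and for Sult1b1 the corn oil estimate of -0.17 lies nearer 0 than those of the other oils.

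The oils themselves were compared pairwise at each time. None of the 49 genes passed in limma in any of the 6 comparisons, against at most 0.0451% of all named genes, with 2 to 5 genes per comparison at an unadjusted p under 0.05. The tests for any diet difference also gave none, with 5 genes at an unadjusted p under 0.05 at 12 h and 4 at 10 wk. With array quality weights 4 of the 49 genes passed at 12 h for any diet difference, against 6.25% of all named genes.

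Pooling both times, fish oil rats were compared with the mean of the corn and olive oil rats. One gene passed, against 0.542% of all named genes called and 0.429% called lower: Akr1b1, which encodes aldose reductase, the enzyme that turns glucose into sorbitol and also reduces lipid aldehydes. On probe 8929 its level in fish oil rats was 10.57, 9.90, 10.55, 10.68 and 10.45 at 12 h and 10.57, 10.67, 10.52 and 10.55 at 10 wk. Corn oil rats stood at 11.07, 11.01, 10.94, 11.09 and 10.79 at 12 h and at 10.78, 11.20, 11.09, 11.06 and 10.95 at 10 wk. Olive oil rats stood at 11.30, 11.33, 10.58, 11.18 and 10.83 at 12 h and at 11.14, 11.35, 10.95, 10.88 and 10.92 at 10 wk. All 9 fish oil rats lay below the mean of the others, and 7 of them below each of the other 20 rats. The groups overlapped through 1 olive oil rat at 10.58.

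Akr1b1 was lower in fish oil rats by a log2 difference of -0.52 (SE 0.09, 1.43-fold, adjusted p = 0.00551). Its other probe, 21943, gave -0.41 (SE 0.07, adjusted p = 0.00551), with 6 fish oil rats below all others. Within the scan classes the first probe gave -0.57, -0.48 and -0.50 and the other -0.58, -0.16 and -0.49, in the order large spots (1 fish oil and 5 other rats), small ring (6 and 7) and large ring (5 and 10). The scan class block ended this call (-0.43, adjusted p = 0.252, and -0.38, adjusted p = 0.103, on the other probe), and also without the large-spot arrays (-0.50, adjusted p = 0.199). Repeat arrays of 1 rat could differ by as much as the groups. Rat 202 gave 9.10 on its small-ring array and 10.69 on its large-spot array for probe 8929, and rat 236 gave 10.34, 10.34 and 10.49 on large-ring arrays and 11.06 on a small-ring array for probe 21943. That last array is the one nearest to an array of rat 136, so whether its label is right is not settled. Without it Akr1b1 gave -0.53 (adjusted p = 0.00335), and without the 7 rats that have an array nearest to another rat the call was lost (-0.45, adjusted p = 0.129).

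**Figure D5:**
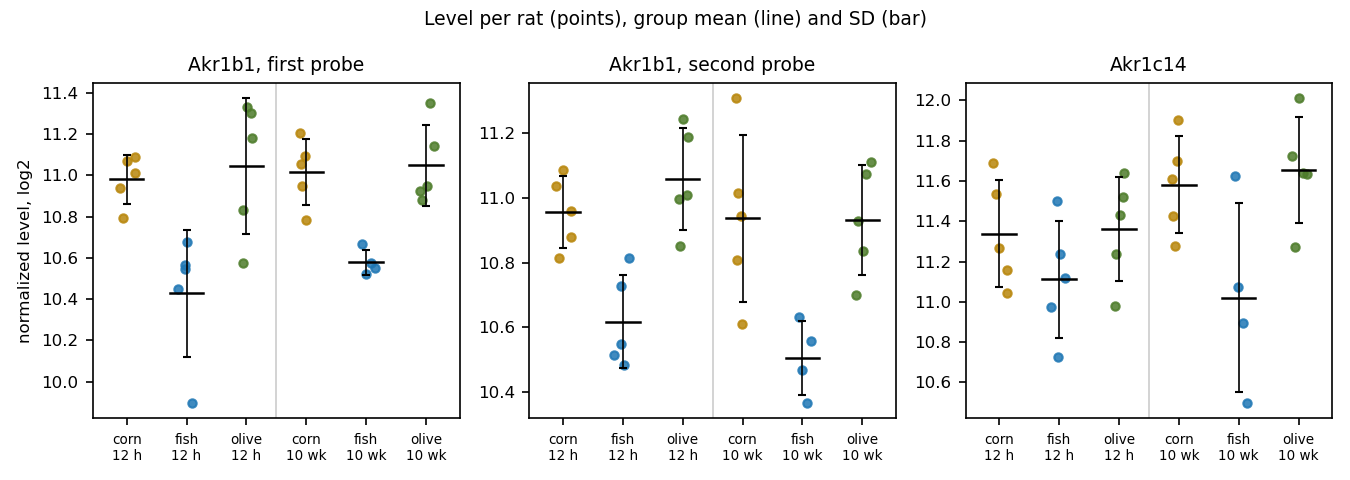
Normalized log2 level in each rat for both Akr1b1 probes (8929 first, 21943 second) and for Akr1c14, by diet and time (points, rats; lines, group means; bars, SD). Fish oil rats lie low for Akr1b1 at both times, while for Akr1c14 they overlap the other oils.

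Akr1c14, a rat hydroxysteroid dehydrogenase of the same family, gave -0.42 in fish oil rats (SE 0.12, adjusted p = 0.0908) and did not pass. Akr1b8, which lies next to Akr1b1 in the genome, gave -0.09 (SE 0.10, adjusted p = 0.773). Ugt2b1 stood at 8.91, 10.82, 11.41, 11.88 and 11.24 in fish oil rats at 12 h and at 10.52, 10.92, 8.84 and 8.53 at 10 wk. Its difference from the other oils was -0.82 (SE 0.31, adjusted p = 0.239), and in rat 236 its large-ring arrays read 8.08, 7.96 and 7.99 against 10.11 on the small-ring array. Some adipocyte and colonocyte markers also differed in fish oil rats: Fabp4 was higher by 1.04 (adjusted p = 0.00447), Aqp8 by 0.87 (adjusted p = 0.0197) and Ceacam1 by 0.51 (adjusted p = 0.0365). These were 1 of 2 adipocyte and 2 of 5 colonocyte markers tested, against 0.113% of all named genes called higher. The adipocyte marker Adipoq (0.62, adjusted p = 0.143) and the colonocyte markers Cdhr5 (0.04), Car2 (-0.12) and Vil1 (-0.01) did not pass. The part of these markers in the Akr1b1 difference was not tested.

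Some genes varied strongly between rats of the same group. In corn oil rats at 12 h Aldh1a1 ran from 7.51 in rat 104 to 11.16 in rat 102. Rat 104 read 7.55 and 7.47 on its arrays. Ephx2, the soluble hydrolase of epoxy fatty acids, stood at 10.56 in 1 fish oil rat and 10.37 in 1 olive oil rat at 12 h, while the other 27 rats lay between 7.36 and 8.26. The fish oil rat, 202, read 10.83 and 10.30 on arrays of different scan classes. These arrays correlated at 0.934 with each other. The one that read 10.83 lay nearest to an array of the olive oil rat, 306 (0.951). The time difference of Ephx2 was -0.31 (SE 0.26, adjusted p = 0.369), and it stood at -0.13 without the fish oil rat and at -0.13 without the olive oil rat. Nqo1 stood at 11.23 in 1 olive oil rat at 12 h and at 10.79 in 1 fish oil rat at 10 wk, and between 8.95 and 9.75 in the other 27 rats. The olive oil rat, 304, was also the highest for Cyp1a1, at 8.14.

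Some of the genes lie side by side in the RefSeq gene order of the rat assembly GRCr8. On chromosome 14 Sult1d1 and Sult1b1 are neighbours, and after 11 other coding genes come Ugt2b1 and Ugt2b10, again neighbours. All 4 were lower at 10 wk. On chromosome 1 Cyp2b12, Cyp2g1, Cyp2a1, Cyp2a2 and Cyp2f4 lie together with at most 2 coding genes between any pair of neighbours. Of these Cyp2b12, Cyp2g1 and Cyp2a2 were lower, Cyp2a1 did not pass, and Cyp2f4, next to Cyp2a2, was higher.

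Promoter windows from RefSeq, 250 bases before to 50 after the start on GRCr8, matched 52 of the 63 genes (53 windows). The core of the antioxidant response element, TGACNNNGC on either strand, was present in 10 of the 53 (18.9%), against 12.1% of 33469 windows in all. It was found in 3 of 15 windows of lower genes (Gstm5, Ephx1 and Gsta2) and 2 of 8 windows of higher genes (Cyp4b1 and Gstz1). The core of the dioxin response element, GCGTG on either strand, was in 16 of the 53 (30.2%), against 29.7% in all. The 5 called genes with an antioxidant core are shown, since they moved in both directions. Bases run 5′ to 3′ on the gene's strand, and capitals mark TGACNNNGC and GCGTG or their reverse complements. For Ephx1 the window of its downstream start is given, and the other start holds neither motif.
Gstm5, GRCr8 chr2:198219519-198219818, plus strand: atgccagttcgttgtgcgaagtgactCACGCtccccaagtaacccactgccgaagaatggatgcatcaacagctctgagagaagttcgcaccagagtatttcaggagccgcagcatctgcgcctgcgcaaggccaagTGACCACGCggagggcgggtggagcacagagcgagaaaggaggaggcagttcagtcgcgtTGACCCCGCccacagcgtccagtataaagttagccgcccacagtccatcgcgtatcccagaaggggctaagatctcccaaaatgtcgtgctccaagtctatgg
Ephx1, GRCr8 chr13:95263068-95263367, minus strand: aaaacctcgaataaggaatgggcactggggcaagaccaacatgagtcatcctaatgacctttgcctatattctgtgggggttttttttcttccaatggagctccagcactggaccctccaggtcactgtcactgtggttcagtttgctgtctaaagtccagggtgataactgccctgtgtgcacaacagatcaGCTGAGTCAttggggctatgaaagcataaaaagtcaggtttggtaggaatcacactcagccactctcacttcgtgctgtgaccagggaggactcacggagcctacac
Gsta2, GRCr8 chr8:88077043-88077342, minus strand: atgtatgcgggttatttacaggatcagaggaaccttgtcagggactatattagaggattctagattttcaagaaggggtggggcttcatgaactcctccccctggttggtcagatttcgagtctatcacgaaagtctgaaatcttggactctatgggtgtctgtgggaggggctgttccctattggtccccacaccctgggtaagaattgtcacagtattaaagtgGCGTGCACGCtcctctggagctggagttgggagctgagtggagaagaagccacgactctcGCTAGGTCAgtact
Cyp4b1, GRCr8 chr5:134393067-134393366, minus strand: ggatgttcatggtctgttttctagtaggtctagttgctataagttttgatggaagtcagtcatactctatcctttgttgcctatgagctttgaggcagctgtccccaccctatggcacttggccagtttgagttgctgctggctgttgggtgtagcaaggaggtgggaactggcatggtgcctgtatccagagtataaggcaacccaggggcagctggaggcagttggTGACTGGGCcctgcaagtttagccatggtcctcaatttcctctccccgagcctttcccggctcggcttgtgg
Gstz1, GRCr8 chr6:112525356-112525655, plus strand: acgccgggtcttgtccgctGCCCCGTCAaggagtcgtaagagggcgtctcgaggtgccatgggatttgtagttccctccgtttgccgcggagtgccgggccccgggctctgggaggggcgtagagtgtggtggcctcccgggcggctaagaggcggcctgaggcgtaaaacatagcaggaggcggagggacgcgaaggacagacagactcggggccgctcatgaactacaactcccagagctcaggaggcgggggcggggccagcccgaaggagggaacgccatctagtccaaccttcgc
Gstm5 holds 2 antioxidant cores and Gsta2, Ephx1, Cyp4b1 and Gstz1 hold 1 each, and Gstm5 and Gsta2 hold 2 dioxin cores each. Of these genes Gstm5 and Ephx1 kept their call with scan class as a block. A match describes the letters in the window and is no evidence that a factor binds there.

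The regulators and partners of these enzymes were read against the 34.7% of all named genes that passed. Of 8 regulators on the array 7 were tested and 1 passed: Mafg, a small Maf protein that pairs with Nrf2, was higher at 10 wk by 0.38 (SE 0.09, adjusted p = 0.00145). Nfe2l2 stood at 0.08 (adjusted p = 0.557), Nr1i2 at -0.05 (adjusted p = 0.703) and Arnt, the partner of the dioxin receptor, at -0.15 (adjusted p = 0.109). Of 5 genes that supply electrons or cofactors 3 were higher and 1 lower. Papss1, which makes the sulfate donor of the sulfotransferases, fell by 0.32 (SE 0.07, adjusted p = 0.000684), whereas Papss2, with the same reaction, rose by 0.34 (SE 0.10, adjusted p = 0.0119). Ugdh, which makes the glucuronic acid donor, rose by 0.20 (adjusted p = 0.0244) and the electron carrier Cyb5b by 0.39.

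Of 14 glutathione and antioxidant genes on the array 12 were tested, with 4 lower and none higher. Gss, the glutathione synthetase, fell by 0.40 (SE 0.09, adjusted p = 0.000902), the haem oxygenase Hmox1 by 0.38, the thioredoxin reductase Txnrd1 by 0.26 and the sulfiredoxin Srxn1 by 0.33. The glutamate-cysteine ligase subunits Gclc and Gclm did not pass (-0.23 and 0.04). Of 7 tested transporters 2 were higher and 1 lower: the organic anion carrier Slco2b1 rose by 0.65 (SE 0.10), the efflux pump Abcc5 by 0.37 and the efflux pump Abcc1 fell by 0.45 (SE 0.08). Other phase 1 genes gave 1 higher (Hsd11b2) and 2 lower (Adh7 and Hsd17b2) among 6 tested, and none of 3 other phase 2 genes passed.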

How the data were processed

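Colonic mucosa of 29 rats was measured on 43 arrays. Per the file headers, each deposited file holds spot mean and background median intensity, used here, and the authors' normalized intensity, used only as an alternative. The files also hold an intensity after the authors' background subtraction, which was not used for levels. In it 26 of the 68 probes carry 1 constant over all arrays of at least 1 diet. Whether the normalized intensity carries such constants was not examined. What software quantified the scans is not stated: not given in the sources used here.

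Background was corrected by normexp (offset 50) and arrays were quantile normalized in limma 3.58.1 under R 4.3.3. Values under the 10th percentile were set to it (6.46), log2 was taken, and repeat arrays were averaged to 1 value per rat. A probe entered the tests if at least 4 rats exceeded the 30th percentile, 6381 of 8452 (75.5%). Sult1c2 did so through late rats alone. All 6 groups entered 1 fit (lmFit, eBayes; 23 residual and 4.17 prior degrees of freedom). Adjusted p-values are Benjamini-Hochberg over all tested probes, with a threshold of 0.05. The brightest tested probe stands for a gene. The smallest number of rats in a group, 4, limits the precision. P-values set a difference between groups against the spread between rats within groups, which holds animal and scan differences. Scan class also overlaps with time, so scan differences can lie in the time difference itself. Scan classes came from median spot area (over 260, large spots) and median background ring area (420, small ring; otherwise large ring). Steps were tested on simulated data.

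The genes described, the pathway lists and the marker lists were chosen with earlier results of these data known. Genes are named if they passed a comparison (up to 30 for time, 8 for diet), if they are the lowest unadjusted p of a family with no call, or if they stand on a list of known enzymes. Of that list Ces2, Aldh2, Gsta4, Gstk1 and Ugt1a1 are not analysed here, and names added after values were seen describe families whole. Alternatives were median scaling, no background subtraction, offset 16, no floor and a floor at the 20th percentile, no filter and a filter at the 50th percentile, the first array of each rat, rat as a random block, scan class as a block, array weights, trended robust moderation, averaging the probes of a gene, deposited values, and leaving out each rat. Chosen after seeing the data were the class of each rat's first array as a block, leaving out large-spot arrays, leaving out 6 high-background arrays, leaving out the last array of rat 236, leaving out the 7 rats with an array that correlates best with another rat's, and deposited values with equal array medians.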

Additional observations from a re-analysis of the deposited data

Results flagged for a closer look

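In 16 of 214 groups of 4 or 5 rats, 1 rat lay apart from the rest by more than the critical value of Dixon's test, and chance flags about 1 group in 20. Rat 202 (fish oil, 12 h) was low for Aldh6a1 at 8.78 (others 9.25 to 9.42) and high for Sult1d1 at 9.03, Fmo1 at 6.69, Ephx2 at 10.56 (others 7.36 to 8.26) and Sult1a1 at 7.26. Also at 12 h, rat 306 (olive oil) was high for Ephx2 at 10.37 (others 7.39 to 7.80), rat 304 (olive oil) for Cyp1a1 at 8.14 (others 6.98 to 7.27), rat 203 (fish oil) for Cyp2g1 at 9.18 and rat 102 (corn oil) for Ephx1 at 11.32. Rat 205 (fish oil) was low for Gstp1 at 13.61 (others 14.00 to 14.02) and rat 103 (corn oil) for Sult1a1 at 6.61. At 10 wk, rat 136 (corn oil) was low for Ugt2b1 at 9.07 (others 10.69 to 11.22), and rat 335 (olive oil) was high for Cyp2u1 at 10.08, rat 236 (fish oil) for Cyp3a23-3a1 at 7.89, rat 134 (corn oil) for Fmo1 at 6.81 and rat 333 (olive oil) for Fmo1 at 6.57. The Fmo1 values lie just above the floor of 6.46. The causes of these single values were not tested.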

How the results depend on the processing

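No paired analysis was possible because the repeat numbers in the labels mark arrays of 1 rat and pair no rats across groups. With scan class as a block, 7 genes were lower and 4 higher at 10 wk (9.91% and 9.86% of all named genes). With that block 3 were called in fish oil and 4 in olive oil rats (4.78% and 3.7% of all named genes), and 0 for fish oil against the other oils (0.0226%). With the class of each rat's first array as a block the counts were 7, 2, 1, 2 and 0, and Gsta2 (0.0761), Sult1d1 (0.0115), Cyp2g1 (0.0723) and Cyp2a2 (0.14) changed sign. Of all named genes 7.16% were then lower and 6.09% higher. Signs also turned within large-spot arrays for Gsta2 (0.23), Cyp2u1 (-0.14), Sult1d1 (0.0438), Cyp2g1 (0.11), Cyp2a2 (0.23) and Cyp2f4 (-0.0545), within small-ring arrays for Sult1d1 (0.0604), Cyp2b12 (0.20) and Cyp3a23-3a1 (0.17), and within large-ring arrays for Cyp2a2 (0.0113). Without the large-spot arrays 5 genes were higher (14.6% of all named genes), 0 were called in corn oil, 2 in olive oil and 0 for fish oil, and Sult1c2 was not bright enough to test.

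Without the 7 rats that have an array nearest to another rat 8 genes were lower and 2 higher, 0, 1 and 5 were called in corn, fish and olive oil rats (0.684%, 2.65% and 6.22% of all named genes), and 0 for fish oil. The deposited values gave 8 lower genes (5.66% of all named genes were lower, and 17.4% passed in either direction), and 0, 3 and 3 in corn, fish and olive oil rats (2.32%, 2.17% and 1.74%), and with equal array medians 0 in corn and 5 in olive oil rats and 1 for any diet difference at 12 h. Array weights gave 21 in olive oil rats (34.9% of all named genes), and at 12 h 1 for olive against corn oil (5.55%), 3 for fish against olive oil (2.19%) and 4 for any diet difference (6.25%). The 50th percentile filter gave 5 in fish oil rats (9.83% of all named genes), and rat as a random block 2 in corn oil rats (4.54%). Other alternatives kept these counts within 1.5 times.

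Leaving out each rat gave 11 to 16 lower and 5 to 10 higher genes (5 without rat 236), 0 to 2 in corn oil rats, 3 to 10 in fish oil rats, 5 to 10 in olive oil rats, a median of -0.10 to -0.04, 1 to 2 for fish oil against the others, 0 to 1 for any diet difference at 12 h (1 without rat 304), 0 to 1 for fish against corn oil at 10 wk (1 without rat 233), and 0 for the other diet comparisons and the interaction. Calls of Cyp2f4, Cyp2b12, Cyp2u1, Cyp4b1, Sult1d1 and Ugt2b10 were lost without 17, 16, 14, 12, 11 and 6 of the 29 rats in turn. Those of Akr1b8, Gsta2 and Gstz1 were lost without rats 234, 233 and 236. The causes were not tested.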
